A study of Homo sapiens with 12 samples.

Results

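RNA‐seq counts of 9 genes were followed in HOS cells, a human osteosarcoma cell line, in which the adaptor protein CIN85 had been raised or silenced. The genes encode NF‐κB subunits (RELA, RELB, NFKB1, NFKB2), cytoplasmic inhibitors (NFKBIA, NFKBIB, NFKBIE), a nuclear IκB protein (NFKBIZ) and a feedback enzyme (TNFAIP3). They were chosen with earlier results of these data known, so their shares of called genes are a description. They were taken by symbol from the 25141 genes of the count table, and all 9 passed the filter on low counts that kept 12542 genes. The 12 libraries fell into 4 groups of 3. The libraries labelled upCIN85 came from HOS cells transfected with full‐length CIN85 in a pRc/CMV2 plasmid and kept as 1 geneticin‐resistant pool, and the Mock libraries from cells with the empty plasmid. For the siCIN85 group CIN85 was silenced with several pooled siRNAs, and siNeg cells were given a non‐targeting siRNA.

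NF‐κB is a family of dimeric transcription factors built from Rel‐homology subunits. In resting cells IκB proteins hold the dimers in the cytoplasm; signals from cytokine receptors activate the IKK complex, which marks IκB for degradation and frees the dimers to enter the nucleus. Several of the genes that the dimers switch on encode parts of the system itself, so that a new supply of IκBα, the product of NFKBIA, and of the ubiquitin‐editing enzyme A20, the product of TNFAIP3, shuts the signal off again. From such general knowledge NFKBIA, NFKBIE, NFKBIZ, NFKB1, NFKB2, RELB and TNFAIP3 were treated as self‐induced, and RELA and NFKBIB as constitutive. In bulk RNA a lower level per cell and fewer expressing cells cannot be told apart.

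Promoter sequences are shown first, since the dimers read a short DNA element, the κB site, near the genes they switch on. RefSeq windows on GRCh38.p14, running from 250 bases before to 50 bases after a transcription start, were found for 7 of the 9 genes; RELB and NFKBIE had no entry. The κB consensus was searched on both strands, with overlapping matches allowed, and 6 of the 7 genes held it in at least 1 of their windows. RELA held it in neither of its 2 windows, whereas NFKBIB, the other constitutive gene, held it in 1 of 2. Across all 35116 windows of the table, 11.3% held a match, and across all genes with a window, 13.3%. For each of the 6 genes the match nearest to and before a RefSeq start is printed below in the direction of transcription, with the match in capitals and 10 bases on each side.
NFKBIA, chr14:35404811-35404840, minus strand: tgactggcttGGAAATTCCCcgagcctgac
NFKBIZ, chr3:101827757-101827786, plus strand: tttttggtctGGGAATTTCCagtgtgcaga
NFKB1, chr4:102501300-102501329, plus strand: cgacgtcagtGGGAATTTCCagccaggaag
NFKB2, chr10:102395674-102395703, plus strand: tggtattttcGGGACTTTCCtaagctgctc
TNFAIP3, chr6:137867194-137867223, plus strand: aaagtcccgtGGAAATCCCCgggcctacaa
NFKBIB, chr19:38899932-38899961, plus strand: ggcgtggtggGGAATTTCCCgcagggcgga
The matches began 81 bases before the start in NFKBIA, 223 in NFKBIZ, 49 in NFKB1, 21 in NFKB2, 55 in TNFAIP3 and 27 in NFKBIB. NFKBIZ and NFKB1 shared the same 10 letters, and the NFKBIA match gave these letters when read on the other strand. NFKBIB held the same letters on the gene strand, beginning 28 bases before the start and overlapping its printed match. In NFKBIA, TNFAIP3 and NFKBIB the consensus read on the other strand. The NFKB2, TNFAIP3 and NFKBIB matches lay inside the bounds that GENCODE 29 gives these genes, which start upstream of the RefSeq start used, and the other 3 lay outside. A match is a string of letters in a window and was not examined for binding.

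Library depth and labels were checked before the comparisons. Total counts ranged from 5334731 to 6049458 in the Mock and upCIN85 libraries and from 3540641 to 4174860 in the siRNA libraries. SH3KBP1, the gene of CIN85, was at 85.1 ± 2.37 CPM (counts scaled by TMM‐normalised library size; mean ± SD, n = 3) in siNeg and 7.54 ± 3.19 in siCIN85 cells, with a log2FC of -3.51 (edgeR, adjusted P = 5.09e-08). It stood at 77.5 ± 5.0 CPM in Mock and 81.3 ± 9.62 CPM in upCIN85 libraries (log2FC 0.07, edgeR adjusted P = 0.887); reads from transcript 3′ ends need not include the plasmid transcript, so this value does not check the upCIN85 label. All 6 mesenchymal and osteoblast markers examined exceeded 3 counts in a library. ALPL was low among them, with 0 to 2 counts in siNeg and 5 to 6 in Mock libraries. The leukocyte marker CD14 had 5 to 6 and 6 to 9 counts there. Of 4 leukocyte markers only CD14 exceeded 3 counts in any library, and the summed level of the 4 stayed between 0.680 and 2.31 CPM over the groups.

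NFKBIA, NFKBIZ and RELB were lower in upCIN85 than in Mock cells, while RELA was not called. All 9 genes had lower mean levels in upCIN85 than in Mock libraries, and 3 of the 9 fell with an adjusted P‐value under 0.05, where 1.23% of all genes tested passed that threshold and 0.789% passed it in the downward direction. The median log2FC was -0.69 over the 9 genes and 0.01 over all genes tested. In 5 of the 9 genes every upCIN85 library lay below every Mock library; 11% of all genes tested did so. Of the 3 epithelial markers examined, EPCAM and CDH1 were tested and neither was called. KRT19, below the filter, had 0 counts in the Mock libraries and at most 4 in an upCIN85 library. The summed level of the 3 was 50.6 to 56.1 CPM in Mock and 69.8 to 82.6 CPM in upCIN85 libraries. Of the 6 mesenchymal and osteoblast markers 5 were higher and 2 were called, COL1A2 (log2FC 1.35, edgeR adjusted P = 0.0439) and ALPL (1.76, adjusted P = 0.034). COL1A2 overlapped between groups, with Mock libraries up to 84.8 CPM and upCIN85 libraries from 62.9 CPM. ALPL had 5 to 6 counts in Mock and 16 to 23 in upCIN85 libraries. SPARC was lower without overlap and was not called (log2FC -0.35, edgeR adjusted P = 0.33). The summed level of the 6 was 1780 to 2250 CPM in Mock and 1900 to 2570 CPM in upCIN85 libraries. The part of these markers in the differences was not tested.

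NFKBIA, the gene of the IκBα protein that recaptures nuclear dimers, stood at 189, 193 and 213 CPM in the 3 Mock libraries and at 96.2, 98.2 and 110.2 CPM in the 3 upCIN85 libraries. The 2 groups were far apart, with little spread in either. The log2FC was -0.97 ± 0.12 (SE; edgeR, adjusted P = 0.000825), that is 0.512 times the Mock level. Each library left out in turn gave a log2FC between -1.03 and -0.91.

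NFKBIZ encodes IκBζ, which stays in the nucleus and acts there as a co‐regulator of NF‐κB target genes rather than as a cytoplasmic anchor. It was counted at 19.4, 17.8 and 18.4 CPM in Mock and at 9.27, 6.86 and 8.16 CPM in upCIN85 libraries. No upCIN85 library came near a Mock library. This was the lowest log2FC of the 9 genes, -1.19 ± 0.17 (SE; edgeR, adjusted P = 0.00174).

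RELB, the subunit that pairs with the NFKB2 product in the non‐canonical branch, stood at 45.3, 37.9 and 45.4 CPM in Mock and at 22.9, 32.4 and 19.7 CPM in upCIN85 libraries. The groups did not overlap, but upCIN85 replicate 2 came closer to Mock than the others. The log2FC of -0.77 ± 0.18 (SE) passed only narrowly (edgeR, adjusted P = 0.0452). The call was lost without any 1 of Mock replicates 1, 2 or 3 or upCIN85 replicates 1 or 3, with adjusted P‐values of up to 0.232.

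The other self‐induced genes were lower without passing the threshold. NFKB1, which encodes the precursor of the p50 subunit, was at 74.5 ± 3.64 CPM in Mock and 56.2 ± 3.46 CPM in upCIN85 cells, with no overlap between libraries (log2FC -0.41 ± 0.12, edgeR adjusted P = 0.0924). NFKB2, which encodes the precursor of p52, had 19 to 50 counts per library and wide spread (log2FC -0.69 ± 0.29, edgeR adjusted P = 0.274). TNFAIP3 was at 7.71, 5.26 and 6.66 CPM in Mock and 4.55, 4.90 and 2.21 CPM in upCIN85 libraries. With no overlap but only 13 to 41 counts per library, the log2FC of TNFAIP3 was -0.74 ± 0.30 (SE; edgeR, adjusted P = 0.258). NFKBIE, the gene of IκBε, differed least among the self‐induced genes, with 8.89 ± 1.56 CPM in Mock and 7.93 ± 1.34 CPM in upCIN85 cells.

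RELA, which encodes the transactivating p65 subunit, stood at 122, 127 and 119.6 CPM in Mock and at 92.5, 124.0 and 93.2 CPM in upCIN85 libraries. The upCIN85 replicate 2 reached the Mock range and the other 2 lay below it. The log2FC was -0.25 ± 0.12 (SE; edgeR, adjusted P = 0.331), and without upCIN85 replicate 2 it was -0.40 with an adjusted P of 0.0599. NFKBIB, the gene of IκBβ, stood at 22.7 ± 3.28 CPM in Mock and 20.4 ± 1.89 CPM in upCIN85 cells, overlapping between groups (log2FC -0.15, 95% interval -0.46 to 0.17). The missed thresholds of RELA and NFKBIB do not show that these genes were unaffected.

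**Figure D1:**
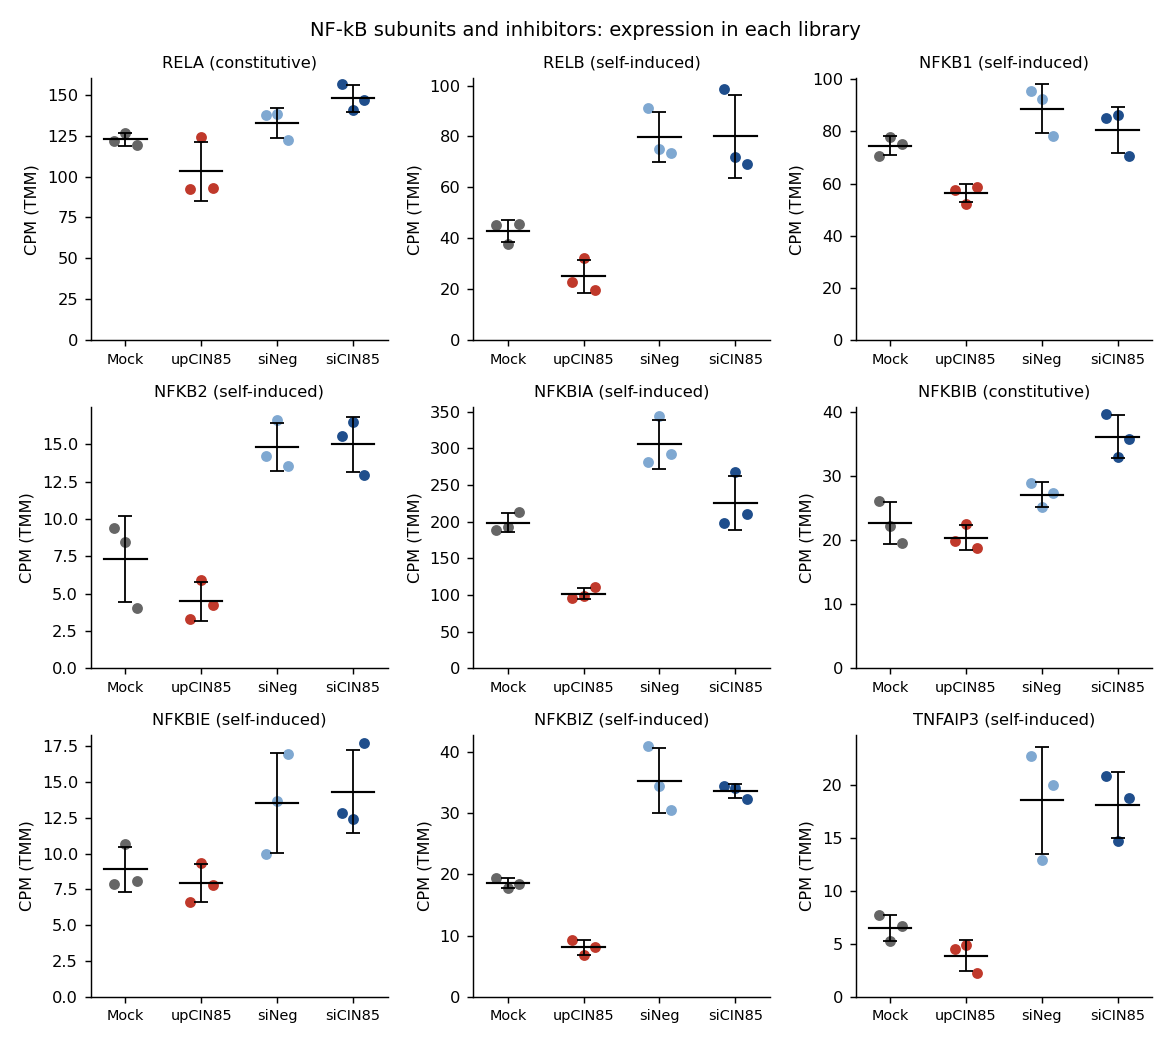
Level of each of the 9 genes in the 12 libraries, in TMM‐normalised CPM on linear axes that start at 0, with 1 panel per gene. Points are libraries, horizontal lines group means and bars SD (n = 3); NFKBIA, NFKBIZ, RELB, NFKB1 and TNFAIP3 show no overlap between Mock and upCIN85, and 1 upCIN85 library of RELA sits at 124.0, within the Mock range.

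In siCIN85 cells NFKBIA had the lowest and NFKBIB the highest log2FC of the 9 genes against siNeg cells. None of the 9 genes passed the threshold between siCIN85 and siNeg cells in edgeR's test without replicate blocks, while 1.04% of all genes tested did. With replicate blocks in both experiments 1 passed, NFKBIA, where 968 of the 12542 genes tested did. At an unadjusted P under 0.05 there were 2 (NFKBIA and NFKBIB), where 15.7% of all genes tested lay, and DESeq2 called 1. The median log2FC was 0.00 over the 9 genes and -0.01 over all genes tested, with 4 of 9 lower. The groups did not overlap for NFKBIA, which was lower, or for NFKBIB and RELA, which were higher; 10.2% of all genes tested lay apart in the downward and 9.91% in the upward direction. The summed level of the 6 mesenchymal and osteoblast markers was 1720 to 2090 CPM in siNeg and 1190 to 1600 CPM in siCIN85 libraries, and its part in these differences was not tested.

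NFKBIA stood at 281, 344 and 292 CPM in the 3 siNeg libraries and at 197.5, 267.5 and 211 CPM in the 3 siCIN85 libraries. Replicate 2 was the highest library of both groups, and each siCIN85 library lay below its same‐numbered control. The log2FC was -0.44 ± 0.12 (SE; edgeR, adjusted P = 0.0802), or 0.736 times the siNeg level. Same‐numbered siRNA libraries deviated together across genes, and with replicate blocks in both experiments NFKBIA passed the threshold (log2FC -0.45, edgeR adjusted P = 0.00201). With the block in the siRNA experiment only, an alternative chosen after seeing the data, its adjusted P was 0.0136. NFKBIA also passed in DESeq2 (adjusted P = 0.0303). In edgeR it passed without the filter on low counts (adjusted P = 0.00998) and without siCIN85 replicate 2 (adjusted P = 0.0162). The calls over all genes went from 131 to 298, 617 and 362 in these fits. Over all alternatives the adjusted P of NFKBIA ran from 0.00201 to 0.328.

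The constitutive genes were the higher ones in siCIN85 cells, although neither passed. RELA was counted at 137.7, 138 and 122 CPM in siNeg and at 156.5, 140.5 and 147 CPM in siCIN85 libraries, and the groups were adjacent but separate (log2FC 0.16 ± 0.12, edgeR adjusted P = 0.538). NFKBIB was at 27.2 ± 1.92 CPM in siNeg and 36.2 ± 3.43 CPM in siCIN85 cells (log2FC 0.42 ± 0.15, edgeR adjusted P = 0.178). An exon of NFKBIB overlaps SIRT2 on the other strand, and the strand setting of the counting was not given in the sources used here, so reads of the pair may be mixed. RELA and TNFAIP3 likewise share exonic bases with an antisense gene, AP001362.2 and AL357060.1 respectively.

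The remaining genes lay close to their siNeg levels. NFKBIZ was at 35.3 ± 5.31 CPM in siNeg and 33.6 ± 1.21 CPM in siCIN85 cells, with a 95% interval of -0.38 to 0.24 for the log2FC. RELB was at 79.9 ± 9.84 and 80.0 ± 16.3 CPM, and its interval ran from -0.36 to 0.37. The intervals of TNFAIP3 (-0.55 to 0.49), NFKB2 (-0.52 to 0.56) and NFKBIE (-0.40 to 0.57) were wider, so that changes of this size were not detectable at this depth. NFKB1, at 88.7 ± 9.29 CPM in siNeg and 80.6 ± 8.81 CPM in siCIN85 cells, overlapped between groups.

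Whether the 2 CIN85 comparisons, upCIN85 minus Mock and siCIN85 minus siNeg, differed was tested directly. The upCIN85 libraries came from 1 selected pool, so the pool and CIN85 cannot be told apart there. Plasmid selection and siRNA delivery also differ between the 2 comparisons. NFKBIZ was the only one of the 9 genes called in the difference between the 2 log2FC values, -1.12 ± 0.22 (SE; edgeR, adjusted P = 0.0249), against 0.973% of all genes tested and 0.686% in the downward direction. All 9 differences were below 0, with a median of -0.56 against 0.01 over all genes tested. The differences were -0.78 for RELB (edgeR, adjusted P = 0.146), -0.53 for NFKBIA (adjusted P = 0.144) and -0.40 for RELA (adjusted P = 0.260). The call for NFKBIZ was lost without any 1 of 7 libraries (Mock replicates 1, 2 and 3, upCIN85 replicate 3, siNeg replicates 2 and 3, siCIN85 replicate 1), with adjusted P‐values of up to 0.0696. Without upCIN85 replicate 2, RELB and RELA were called besides NFKBIZ, while the calls over all genes went from 122 to 341.

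**Figure D2:**
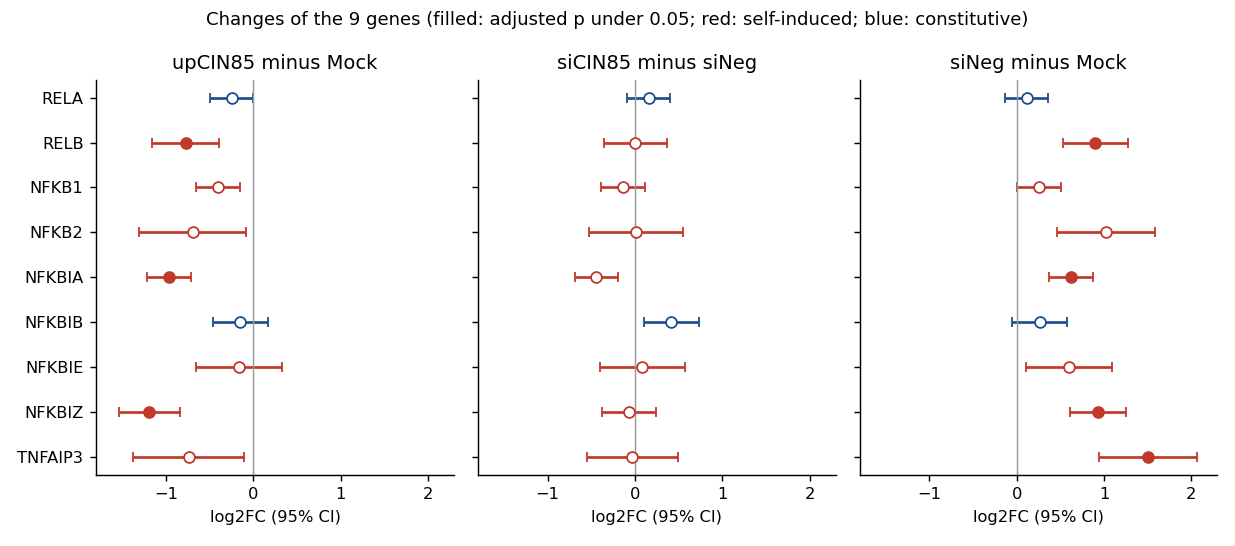
log2FC of the 9 genes with 95% intervals in upCIN85 minus Mock, siCIN85 minus siNeg and siNeg minus Mock, from edgeR's fit on 12 libraries. Filled points passed an adjusted P of 0.05; red marks the 7 self‐induced and blue the 2 constitutive genes, and filled points appear at NFKBIA, NFKBIZ and RELB on the left, nowhere in the middle, and at NFKBIA, NFKBIZ, RELB and TNFAIP3 on the right.

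The 2 control groups differed from each other as well. In the siNeg libraries all 9 genes had higher mean levels than in the Mock libraries, and 4 of the 9 rose with an adjusted P‐value under 0.05, against 0.526% of all genes tested and 0.415% in the upward direction. In 6 of the 9 every siNeg library lay above every Mock library, as in 9.48% of all genes tested. The median log2FC was 0.62, and 0.00 over all genes tested. This comparison shares the Mock libraries with upCIN85 minus Mock and the siNeg libraries with siCIN85 minus siNeg. The siRNA delivery, the plasmid selection and the depth differ together between these controls and cannot be told apart.

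TNFAIP3 rose most between the controls, from 6.55 ± 1.23 CPM in Mock to 18.6 ± 5.06 CPM in siNeg cells (log2FC 1.5 ± 0.27, edgeR adjusted P = 0.0153). NFKBIZ rose with a log2FC of 0.93 ± 0.15 (edgeR, adjusted P = 0.00857), RELB with 0.90 ± 0.18 (adjusted P = 0.0261) and NFKBIA with 0.62 ± 0.12 (adjusted P = 0.0234). NFKB2 went from 7.31 ± 2.87 to 14.8 ± 1.61 CPM without overlap, but was not called (adjusted P = 0.0942), except by DESeq2 (adjusted P = 0.0444) and without the low‐count filter (adjusted P = 0.00542). RELA had a log2FC of 0.11 (95% interval -0.13 to 0.36) and NFKBIB of 0.26 (-0.05 to 0.58). No member was called without Mock replicate 2 or without Mock replicate 3, 1 without siNeg replicate 2, and 2 without Mock replicate 1 or siNeg replicate 1. Over all genes the calls likewise went from 66 to 9 without Mock replicate 2, 7 without Mock replicate 3, 8 without siNeg replicate 2, 26 without Mock replicate 1 and 34 without siNeg replicate 1.

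For every member the lowest mean was that of upCIN85, followed by Mock. Between these neighbours the libraries did not overlap for RELB, NFKB1, NFKBIA, NFKBIZ and TNFAIP3, and overlapped for RELA, NFKB2, NFKBIB and NFKBIE. Between Mock and the lower of the siRNA groups they did not overlap for RELB, NFKB2, NFKBIZ and TNFAIP3. Between the siRNA groups they did not overlap for RELA, NFKBIA and NFKBIB, where siNeg was the higher group only for NFKBIA. Of all genes tested, 11% lay lower in upCIN85 than in Mock without overlap. Between the siRNA groups, 10.2% lay apart with siCIN85 lower and 9.91% with siCIN85 higher. No share over all genes was computed for the order of the means or for Mock against the lower siRNA group.

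Counts of the other members were then set against RELA within each library, a ratio in which library size cancels. The values are log2 ratios of counts and are compared between groups only, since reads per transcript differ between genes. The ratio of NFKBIA was 0.64, 0.60 and 0.83 in Mock and 0.06, -0.34 and 0.24 in upCIN85 libraries. That of NFKBIZ was -2.64, -2.82 and -2.69 in Mock and -3.29, -4.14 and -3.49 in upCIN85 libraries. Both genes were lower relative to RELA in every upCIN85 library, by 0.70 and 0.93 on the log2 scale. RELB differed in the same way by -0.54. For these 3 genes the groups did not overlap, with P = 0.1 in the two‐sided exact permutation test, the smallest value that 3 against 3 libraries can give. Of the 7 self‐induced genes 6 had a lower mean ratio, with a median difference of -0.53, and NFKBIE was the exception at 0.10. Ratios were not computed for the other genes tested, so no share over all genes stands beside these counts. The constitutive NFKBIB differed by 0.12 (exact permutation P = 0.4). No difference passed after adjustment over the 16 tests, the smallest adjusted P of these exact permutation tests being 0.229.

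In siCIN85 cells all 7 self‐induced genes had a lower mean ratio to RELA than in siNeg cells, with a median difference of -0.17. The ratio of NFKBIA was 1.03, 1.31 and 1.25 in siNeg and 0.34, 0.93 and 0.52 in siCIN85 libraries, a difference of -0.60. NFKB1 differed by -0.29, NFKBIZ by -0.22 and NFKBIB by 0.25, and for NFKBIA and these 3 genes the groups did not overlap (exact permutation P = 0.1, adjusted 0.229). RELA itself had a higher mean in siCIN85 libraries (log2FC 0.16), and on their own levels only 4 of the 7 self‐induced genes were lower. The median log2FC over all genes tested was -0.01, so an unchanged gene would also have a lower ratio. The share of all genes with a lower ratio was not computed here either. RELB, NFKB2 and NFKBIE had log2FC values of 0.00, 0.02 and 0.08, so their lower ratios come from the RELA counts, while for NFKBIB the RELA counts work against the higher ratio.

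**Figure D3:**
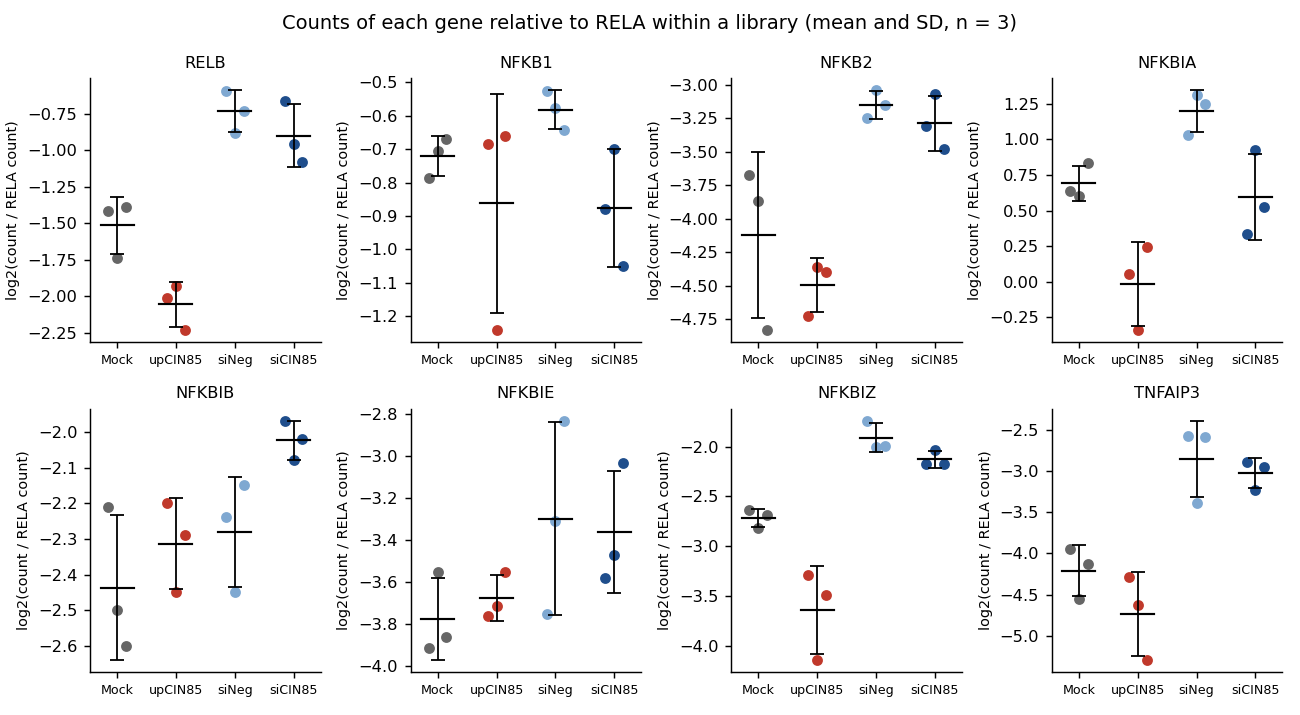
log2 ratio of the count of 8 genes to the RELA count of the same library, with a separate axis range in each panel. Points are libraries, lines means and bars SD (n = 3); in NFKBIA the upCIN85 libraries lie between -0.34 and 0.24, below the Mock libraries at 0.60 to 0.83, and the siCIN85 libraries lie below the siNeg libraries.

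The rest of the pathway was described with 80 genes in 6 lists, of which 61 were tested. The lists were chosen with earlier results of these data known. Their shares of called genes, in each comparison, are therefore a description and no independent test against all genes. In upCIN85 minus Mock, 8 of the 61 were called, 7 lower and 1 higher, against 1.23% of all genes tested, and the median log2FC was -0.20. The induced outputs, genes of cytokines, adhesion molecules and enzymes that NF‐κB is known to switch on, held 16 tested genes. Of these, 15 were lower and 5 were called, with a median log2FC of -1.22. The called ones were CXCL8 (log2FC -3.86) and CXCL1 (-3.21), which encode neutrophil chemokines, PTX3 (-2.23), which encodes a secreted pattern‐recognition protein, ICAM1 (-1.47), which encodes an adhesion molecule, and PLAU (-0.69), which encodes urokinase. CXCL8 went from 20.7 CPM as the median of the Mock libraries to 1.53 CPM in upCIN85 libraries, where it had 5 to 10 counts (edgeR, adjusted P = 0.000135). PTX3 was at 76.8 ± 4.22 CPM in Mock and 16.3 ± 7.34 CPM in upCIN85 cells (edgeR, adjusted P = 0.000161). The calls for ICAM1 and LTB were lost without upCIN85 replicate 3, and that for PLAU without Mock replicate 1, Mock replicate 2 or upCIN85 replicate 3.

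Among ligands, receptors, kinases and adaptors the calls were few. LTB, the gene of the membrane ligand lymphotoxin β, had 31, 19 and 29 counts in Mock and 2, 6 and 2 counts in upCIN85 libraries (log2FC -3.00, edgeR adjusted P = 0.00632). TNF, below the filter, had 2, 4 and 6 counts in Mock and 0 in each upCIN85 library. BIRC3, a ubiquitin ligase of the receptor complex and itself a known target gene, was at 38.2 ± 1.59 CPM in Mock and 14.5 ± 3.72 CPM in upCIN85 cells (log2FC -1.40, edgeR adjusted P = 0.00115). MAP3K14, which encodes the kinase NIK of the non‐canonical branch, was the only pathway gene called higher, going from 9.22, 8.15 and 6.84 CPM in Mock to 13.8, 18.3 and 16.1 CPM in upCIN85 libraries. No library overlapped (log2FC 1.00 ± 0.21, edgeR adjusted P = 0.0279), and the call was lost without Mock replicates 2 or 3 or upCIN85 replicates 2 or 3. RELB and NFKB2, which act in the same branch, had the values given above. The 10 kinases tested had a median log2FC of -0.10, the 23 ubiquitin and adaptor genes 0.03, and the 7 receptors -0.27 with no gene called. Of the 3 other family members tested none was called. TNIP3, a partner of A20, had 6, 3 and 6 counts in Mock and 0, 3 and 0 counts in upCIN85 libraries and was not called (edgeR, adjusted P = 0.185). IRAK4, a kinase of interleukin‐1 signalling, had a log2FC of 0.49 (edgeR adjusted P = 0.301).

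In siCIN85 minus siNeg, 2 of the 61 genes were called, against 1.04% of all genes tested. MAP3K8, a kinase that is held by the NFKB1 precursor, was at 16.7, 8.80 and 9.12 CPM in siNeg and 4.37, 4.34 and 4.22 CPM in siCIN85 libraries (log2FC -1.42, edgeR adjusted P = 0.0253). All siCIN85 libraries lay below all siNeg libraries, although siNeg replicate 1 stood well above the rest. Its level in upCIN85 cells was 4.3 ± 0.684 CPM against 8.63 ± 0.270 CPM in Mock (log2FC -1.0, edgeR adjusted P = 0.0648). That change of MAP3K8 passed in the fit on 6 libraries (adjusted P = 0.038), without the low‐count filter (0.0127) and with the replicate block in both experiments (0.00864), all in edgeR. TNFRSF1B, a receptor of TNF, was at 4.75 ± 1.61 CPM in siNeg and 13.6 ± 4.31 CPM in siCIN85 cells (log2FC 1.52, edgeR adjusted P = 0.0264). Both calls were lost in the fit on 6 libraries and without any 1 of siNeg replicate 1, siCIN85 replicate 1 or siCIN85 replicate 3, and that for TNFRSF1B also without siNeg replicates 2 or 3. IRAK1, like IRAK4 a kinase of interleukin‐1 signalling, had a log2FC of 0.44 (edgeR adjusted P = 0.112). Of the 16 induced outputs 13 were lower and none was called, with a median of -0.32 and 4 at an unadjusted P under 0.05. With the replicate block in the siRNA experiment only, 5 of the 61 genes were called, while the calls over all 12542 genes went from 131 to 429. The 3 added calls were the induced output CCL2, IRAK1 (edgeR adjusted P = 0.0391) and LTB (log2FC 0.96, edgeR adjusted P = 0.0334). Between siNeg and Mock all 16 induced outputs were higher, 9 of them called against 0.526% of all genes tested, with a median log2FC of 1.27.

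**Figure D4:**
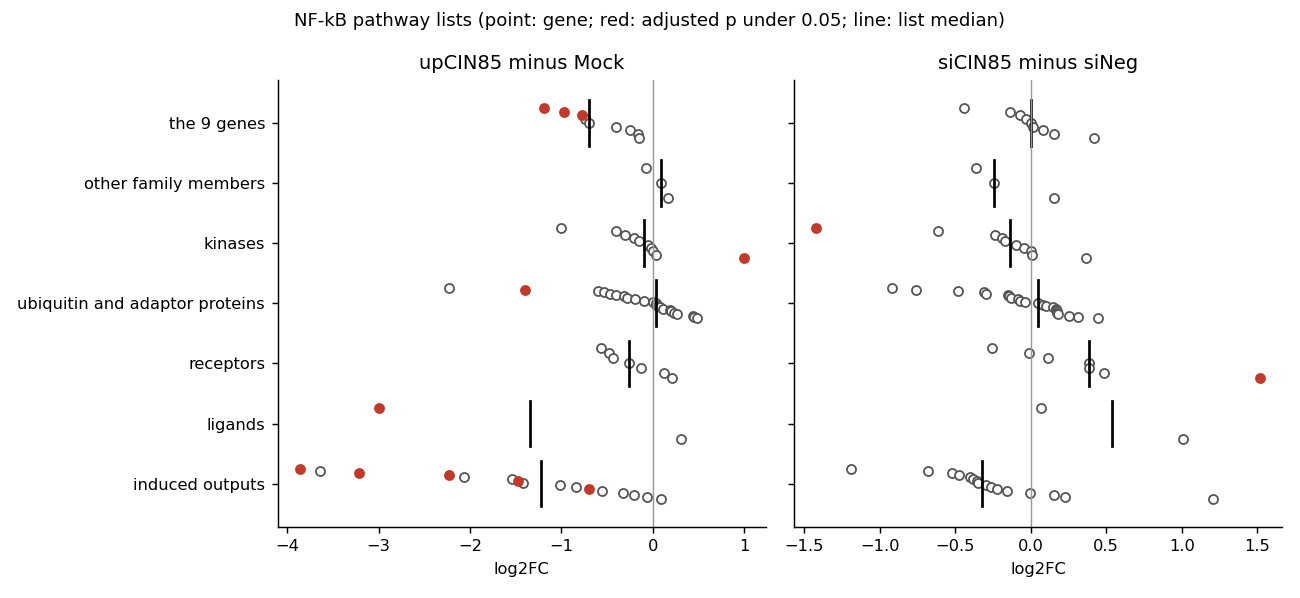
log2FC of each tested gene of the 9 members and of the 6 other lists, in upCIN85 minus Mock and in siCIN85 minus siNeg, with a different axis range in each panel. Each point is a gene, red points passed an adjusted P of 0.05 and the black line is the list median, which for the induced outputs lies at -1.22 on the left and -0.32 on the right.

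The genes whose levels followed those of NFKBIA and RELA most closely were looked up over the 12 libraries, after subtraction of the mean of the 6 plasmid or the 6 siRNA libraries. For NFKBIA they were CNTNAP1 (Pearson's r 0.95, Spearman's rho 0.92), CXCL8 (0.93, 0.94), MAPK9 (0.92, 0.85), BIRC3 (0.92, 0.94) and CFLAR (0.92, 0.85). For RELA they were PHF19 (0.94, 0.92), ESM1 (0.94, 0.90), TUBG1 (0.94, 0.91), MRPS5 (0.94, 0.93) and TMED9 (0.93, 0.90), none of them on the pathway lists. Among the members, NFKBIA correlated at 0.84 with NFKB1, 0.83 with NFKBIZ, 0.61 with RELB, 0.47 with NFKB2, 0.37 with TNFAIP3 and 0.12 with NFKBIE. With the constitutive genes it correlated at 0.31 (RELA) and -0.23 (NFKBIB). RELA correlated at 0.79 with RELB, 0.65 with NFKB2, 0.64 with NFKBIB and lower with the other members. The points share libraries, depth and the group differences described above, so these coefficients describe the 12 libraries only.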

How the data were processed

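QuantSeq 3′ libraries of 12 HOS samples were used. Per the submitters' processing notes in the labels, the authors trimmed reads with cutadapt 4.3, mapped them to GRCh38 with STAR 2.7.3a and counted reads per gene with featureCounts of Subread 2.0; the deposited values are raw counts of 25141 Ensembl genes. Collapsing of molecular identifiers, the annotation release and the strand setting are not given in the sources used here. Names and positions come from GENCODE 29, in which 95 identifiers had no match.

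Counts were tested in R 4.3.3 with edgeR 4.0.16: filterByExpr (minimum count 10, minimum total 15) kept 12542 genes, TMM factors were applied, and a quasi‐likelihood fit with 4 group means on 12 libraries left 8 residual degrees of freedom. P‐values were two‐sided and Benjamini‐Hochberg adjusted over all genes, with a threshold of 0.05. SE is the absolute log2FC over the square root of F. Ratios to RELA used a prior count of 1. The script was tested on simulated data. The labels do not say that replicates are separate cultures, so P‐values measure the spread between these samples, and count‐based precision covers counting error only. Replicates differed by more than sampling noise (chi‐square per gene of at least 4.93).

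Replicate numbers are shared in the labels. Same‐numbered siNeg and siCIN85 libraries correlated at 0.353, 0.269 and 0.446 in their deviations from group means. Same‐numbered Mock and upCIN85 libraries correlated at 0.326, 0.227 and 0.0989. The main fit used no replicate block in either experiment. Members and lists were chosen with earlier results of these data known. Besides the members and SH3KBP1, pathway genes were named when called in upCIN85 minus Mock or siCIN85 minus siNeg, or when among the 2 lowest or 2 highest log2FC of the family, kinase and ubiquitin lists, and for NFKBIA and RELA the 5 genes with the highest Pearson's r. TNF, CCL2, COL1A2, ALPL and SPARC were named after their values were seen. Alternatives were RLE normalisation, no low‐count filter, at least 10 counts in every library, 6 libraries per fit, replicate blocks, DESeq2 1.42.0 and each library left out; for ratios, NFKBIB as reference and a prior count of 5.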

Additional observations from a re-analysis of the deposited data

Results flagged for a closer look

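The change of NFKBIZ differed between the 2 CIN85 comparisons, where the upCIN85 pool and the way of delivery cannot be told apart from CIN85. Its log2FC was -1.19 in upCIN85 minus Mock and -0.07 in siCIN85 minus siNeg, and the difference of -1.12 passed edgeR's test of the interaction (adjusted P = 0.0249). Over 17 alternatives the difference stayed between -1.24 and -1.01, and its adjusted P ran from 0.00229 to 0.0696, above the threshold in 7 of the 12 fits without 1 library. The 2 comparisons started from different control levels, 18.5 ± 0.788 CPM in Mock and 35.3 ± 5.31 CPM in siNeg libraries; the part of that control level in the difference was not tested.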

How the results depend on the processing

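Over all alternatives NFKBIA and NFKBIZ stayed called and lower in upCIN85 minus Mock. Without the low‐count filter, the members called were 1 in siCIN85 minus siNeg and 2 in the difference of the CIN85 comparisons, and the other pathway genes called were 16 in upCIN85 minus Mock and 6 in siCIN85 minus siNeg. With the replicate block in both experiments these were 1, 3, 17 and 8. NFKB1 then passed in upCIN85 minus Mock (adjusted P = 0.0137). With the block in the siRNA experiment only, chosen after seeing the data, 1 member and 5 pathway genes were called in siCIN85 minus siNeg. DESeq2 called 1 member there and 13 pathway genes in upCIN85 minus Mock. In siCIN85 minus siNeg, 1 pathway gene was called with at least 10 counts in every library and 0 in the fit on 6 libraries. RELB in upCIN85 minus Mock lost its call with at least 10 counts in every library (adjusted P = 0.0525). In both experiments only the replicate numbers link the libraries, and each library correlated best with its own number. For Mock and upCIN85 the same‐number correlations were 0.326, 0.227 and 0.0989. The block raised the genes called in upCIN85 minus Mock from 154 to 1035. The calls it added among the members were NFKB1 in upCIN85 minus Mock, NFKBIA in siCIN85 minus siNeg, and NFKBIA and RELB in the difference; it changed no other call of a member. The block shared by Mock and siNeg left 4 members called. With paired differences of the ratios to RELA no P below 0.25 is possible.

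With 1 library left out, members called ranged from 2 to 3 in upCIN85 minus Mock, 0 to 1 in siCIN85 minus siNeg, 0 to 4 in siNeg minus Mock and 0 to 3 in the difference, and pathway genes from 4 to 9 in upCIN85 minus Mock and 0 to 5 in siCIN85 minus siNeg. Over all genes, the fits with 1 library left out called 25 to 260 in upCIN85 minus Mock and 9 to 362 in siCIN85 minus siNeg. For siNeg minus Mock the range was 7 to 134, and for the difference 33 to 341. Some values near 0 in siCIN85 minus siNeg changed sign. RELB was at -0.0123 without the filter, -0.00606 and -0.00716 with the blocks in both or only the siRNA experiment and -0.00245 in DESeq2, and ranged from -0.18 to 0.106 with 1 library left out. The corresponding ranges were -0.0675 to 0.101 for NFKB2, -0.105 to 0.267 for NFKBIE, -0.174 to 0.045 for NFKBIZ and -0.247 to 0.14 for TNFAIP3. In upCIN85 minus Mock they were -0.0742 to 0.147 for IRAK1 and -0.0107 to 0.155 for SH3KBP1. The log2 ratio to RELA ranged from -0.243 to 0.0475 for NFKB1 in upCIN85 minus Mock and from -0.287 to 0.173 for NFKBIE in siCIN85 minus siNeg, and NFKBIE reached -0.0203 in upCIN85 minus Mock with NFKBIB as reference. Of the other single‐gene values, 373 kept direction and side of the threshold with 1 library left out, 44 lost and 6 gained a call; under the other alternatives these were 361, 3 and 20. The cause of these differences was not tested, except that fewer libraries leave fewer residual degrees of freedom.

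Over all genes, the calls of 154 in upCIN85 minus Mock, 131 in siCIN85 minus siNeg, 66 between the controls and 122 in the difference became 637, 617, 376 and 554 without the filter and 311, 298, 183 and 269 in DESeq2. The fit on 6 libraries gave 281 and 50 in the CIN85 comparisons, the block in both experiments 968 in siCIN85 minus siNeg and 918 in the difference, the siRNA block alone 429, and the block shared by Mock and siNeg 146. NFKB2, NFKBIE and TNFAIP3, with 13 to 91 counts per library, had the widest intervals of the 9 genes.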
